A study of Mus musculus with 14 samples.

Results

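Acute-phase genes encode plasma and secreted proteins whose amounts change during inflammation. Here 8 of them were followed, out of 55487 genes counted: the serum amyloid A genes Saa3, Saa1 and Saa2, lipocalin 2 (Lcn2), leucine-rich alpha-2-glycoprotein (Lrg1), haptoglobin (Hp), orosomucoid (Orm1) and pentraxin 3 (Ptx3). All 8 were found by symbol in the count tables of 3 bone marrow populations. The genes were selected on their IL-1β against PBS differences in these same libraries, so those differences are described with their errors and without a p-value for any of the 8.

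LSK (Lin-Sca1+c-kit+) cells are the stem cell-enriched fraction of mouse marrow, and LK (Lin-c-kit+) cells are mostly committed progenitors. Both were sorted from the same kind of animal: lethally irradiated C57BL/6 mice that had received marrow of pI-pC induced Mx1Cre; Jak2VF/+ mice, which carry 1 heterozygous activating Jak2 knock-in allele. Mx1Cre is switched on by interferon and acts in blood and other tissues, the non-hematopoietic cells of the recipients were wild-type, and none of the LSK or LK libraries came from marrow without the Jak2 allele. The mice had been given PBS or IL-1β (0.5 μg a dose, 3 intraperitoneal doses a week) for 16 weeks, with 3 PBS and 2 IL-1β libraries for each population. The third population, mesenchymal stromal cells (MSC), was grown from C57BL/6 marrow for 21 days and then kept for 72 hours with IL-1β (5 ng/ml) or with PBS alone, with 2 libraries for each treatment. The labels give neither the age of the mice nor whether a library is 1 animal or a pool, so the spread between libraries may be partly technical.

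The acute-phase response is best known from the liver, where IL-1 acts through NF-κB and IL-6 acts through STAT3, with C/EBP factors, on the genes of secreted defence proteins. Several of these proteins are also made outside the liver. Saa3 is the serum amyloid A of mouse macrophages, fat and stroma, whereas Saa1 and Saa2 are the main hepatic forms. LCN2 binds bacterial siderophores and is stored in the specific granules of neutrophils, which also hold haptoglobin and LRG1.

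The libraries held 4393233 to 30871055 counted read pairs. In LSK and LK cells all IL-1β libraries were shallower than the shallowest PBS one, so the effect of depth and that of treatment cannot be told apart there. Levels are given as counts per 1000000 counted read pairs (CPM) with TMM normalization within each population. Hepatocyte markers were almost absent apart from Apob: of 10 genes, 7 to 10 were at 0 in each library, and the summed level of the list reached 9.07 CPM at most. Apob had 116, 101 and 75 read pairs in the LSK PBS libraries, 0 in both LSK IL-1β libraries and at most 2 in any other. All 10 stem and progenitor markers were higher in LSK than in LK cells under PBS. The MSC libraries carried macrophage transcripts. Their 15 macrophage markers summed to 14440 and 18257 CPM with PBS and 35572 and 36562 CPM with IL-1β, against 1742 and 3548, then 4378 and 4878 CPM for 15 mesenchymal markers. The cultures are therefore referred to by the label MSC, without a claim that stromal cells made the transcripts.

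The stretches upstream of the serum amyloid A genes are shown because Saa3 and its 2 paralogs reached very different levels in the same libraries. RefSeq promoters (GRCm38.p6, 250 bases before to 50 bases after the start) were listed for 6 of the 8 genes, all but Hp and Orm1. They were searched on both strands for GGNNTTNCC (NF-κB), TTNCNNAA (C/EBP) and TTCNNNGAA (STAT3). Of all 32851 promoters, 15.96% held the first, 40.68% the second and 8.298% the third. The lines below run 5′ to 3′ in the direction of the gene from base 250 to base 51 before the start, and capitals mark matches. The stretches lie at chr7:46715727-46715926 (minus strand) for Saa3, chr7:46743031-46743230 (minus strand) for Saa1 and chr7:46751583-46751782 (plus strand) for Saa2.
Saa3: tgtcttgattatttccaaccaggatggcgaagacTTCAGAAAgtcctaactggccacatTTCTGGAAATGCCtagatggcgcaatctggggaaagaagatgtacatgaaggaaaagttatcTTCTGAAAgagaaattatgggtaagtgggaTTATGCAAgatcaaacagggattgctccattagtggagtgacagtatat
Saa1: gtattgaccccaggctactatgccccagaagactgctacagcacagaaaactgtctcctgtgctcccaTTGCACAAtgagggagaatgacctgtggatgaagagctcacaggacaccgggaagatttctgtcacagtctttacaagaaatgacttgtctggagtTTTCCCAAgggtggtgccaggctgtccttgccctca
Saa2: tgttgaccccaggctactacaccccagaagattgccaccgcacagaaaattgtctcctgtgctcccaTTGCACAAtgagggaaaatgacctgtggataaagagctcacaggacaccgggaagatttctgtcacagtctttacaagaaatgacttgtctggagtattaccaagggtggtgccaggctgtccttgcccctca

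The Saa3 stretch held 4 C/EBP matches and 1 NF-κB match, which overlapped a C/EBP match in the run of 13 capitals. Saa1 held 2 C/EBP matches and Saa2 held 1. In a global alignment of the 200 bases, Saa1 and Saa2 were 93.53% identical, Saa1 and Saa3 52.3%, and Saa2 and Saa3 51.93%. The Lcn2 promoter held 1 C/EBP match, shown here with 11 bases on each side (chr2:32387937-32387966, minus strand).
Lcn2: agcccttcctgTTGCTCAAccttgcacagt

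The Ptx3 promoter held 1 C/EBP match and, within the 50 bases after its start, 1 NF-κB match. No match to any of the 3 motifs was found in the Lrg1 window, and no STAT3 match in any of the 6. A match of letters is a description and not evidence of binding.

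Saa3 (ENSMUSG00000040026, chr7:46711998-46715700, minus strand, GRCm38) was among the genes with the largest differences in the series. In MSC its level was 2.33 and 1.36 CPM without IL-1β and 1603 and 1955 CPM with it. The 2 IL-1β libraries thus held 48869 and 22149 Saa3 read pairs, 0.158% and 0.190% of all counts. The log2 fold change was 10.02 (SE 0.28, n = 2 and 2), rank 2 of 13239 genes tested. In LK cells the level was 0.238, 0.154 and 0.286 CPM with PBS and 19.5 and 14.4 CPM with IL-1β, and the log2 fold change was 6.21 (SE 0.38). In LSK cells it was 0.366, 0.157 and 0.702 CPM with PBS and 9.86 and 7.69 CPM with IL-1β, and the log2 fold change was 4.37 (SE 0.84). The treatments did not overlap in any of the 3 populations. The PBS libraries of LSK and LK cells rested on 2 to 12 Saa3 read pairs each, so their levels and the fold changes against them are imprecise.

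Saa1 (ENSMUSG00000074115, chr7:46740497-46742980, minus strand) and Saa2 (ENSMUSG00000057465, chr7:46751790-46754313, plus strand) lie near Saa3 and were detected above the floor of 3 counts only in IL-1β-treated MSC. Saa1 had 0 and 0 read pairs with PBS, whereas IL-1β gave 35 and 11, at least 6.84-fold higher against 3 counts over the summed PBS libraries. Saa2 likewise had none with PBS, and 23 and 10 after IL-1β, at least 4.91-fold higher on the same floor. In LSK and LK cells no library held more than 2 read pairs of Saa1 or 3 of Saa2. Saa3 made up 99.88% and 99.91% of the read pairs of the 3 genes in IL-1β-treated MSC. Read pairs that fit Saa1 and Saa2 equally well were not counted, so both levels may be too low. Such floors and intervals cover counting error only.

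Lcn2 (ENSMUSG00000026822, chr2:32384633-32388252, minus strand) was higher with IL-1β in all 3 populations. In LSK cells the level was 1.54, 0.470 and 1.75 CPM with PBS and 123 and 148 CPM with IL-1β, and the log2 fold change was 6.71 (SE 0.44), rank 5 of 13132. In LK cells it was 3.02, 1.85 and 4.15 CPM with PBS and 174 and 120 CPM with IL-1β, and the log2 fold change was 5.65 (SE 0.31). In MSC it was 0.667 and 0.828 CPM with PBS and 50.7 and 54.5 CPM with IL-1β, and the log2 fold change was 6.07 (SE 0.19). Every IL-1β library lay far above every PBS library. The IL-1β levels of LSK and LK cells overlapped each other, and those of MSC lay below both.

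Lrg1 (ENSMUSG00000037095, chr17:56119678-56122001, minus strand), whose product modulates TGFβ signalling through endoglin, differed in the blood-forming populations and not detectably in MSC. In LSK cells the level was 0.293, 0 and 0.409 CPM with PBS and 19.7 and 23.6 CPM with IL-1β, and the log2 fold change was 6.40 (SE 0.79). In LK cells it was 0.159, 1.08 and 1.57 CPM with PBS and 42.8 and 35.5 CPM with IL-1β, and the log2 fold change was 5.33 (SE 0.52). In CPM the PBS libraries of LK cells thus spanned a wider range than those of LSK cells, of which 1 was at 0. The treatments stayed apart in both populations. In MSC Lrg1 had 1 and 3 read pairs with PBS and 12 and 3 with IL-1β. The ratio of raw CPM was 1.67, with an exact 95% interval of 0.533 to 6.93, and the gene had too few counts to be fitted there.

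Hp (ENSMUSG00000031722, chr8:109575128-109579172, minus strand), which encodes the hemoglobin-binding protein of plasma, had the highest PBS level of the 8 in LSK and LK cells. In LSK cells the level was 21.0, 20.4 and 26.4 CPM with PBS and 262 and 294 CPM with IL-1β, and the log2 fold change was 3.62 (SE 0.25). In LK cells it was 39.3, 41.4 and 87.8 CPM with PBS and 453 and 294 CPM with IL-1β, and the log2 fold change was 2.74 (SE 0.44). The third PBS library of LK cells was the highest of its group for Hp, Lcn2 and Lrg1. In MSC the PBS libraries differed from each other, at 42.2 and 10.8 CPM, and the IL-1β libraries lay at 887 and 996 CPM. The log2 fold change in MSC was 5.22 (SE 0.73), and it moved between 4.48 and 6.45 when 1 library at a time was left out.

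Orm1 (ENSMUSG00000039196, chr4:63344560-63348163, plus strand), a plasma carrier of drugs and lipids, and Ptx3 (ENSMUSG00000027832, chr3:66219910-66225805, plus strand), a secreted pattern-recognition protein, were close to absent from LSK and LK cells. In LK cells Orm1 had 0, 0 and 1 read pairs with PBS and 6 and 1 with IL-1β, a ratio of 22.6 with an exact 95% interval of 2.91 to 1020. In LSK cells it had 1 read pair in all 5 libraries together. In MSC it had 0 and 0 read pairs with PBS and 14 and 1 with IL-1β, at least 2.23-fold higher, and 1 library held nearly all of them. Ptx3 had at most 1 read pair in any LSK or LK library. In MSC it was well expressed without IL-1β, at 30.7 and 24.9 CPM, and reached 66.9 and 72.5 CPM with IL-1β, and the log2 fold change was 1.34 (SE 0.14). Ptx3 was thus a transcript of the cultures and not of the sorted cells, and its difference lay far below those of Saa3 and Lcn2 in the same libraries.

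**Figure D1:**
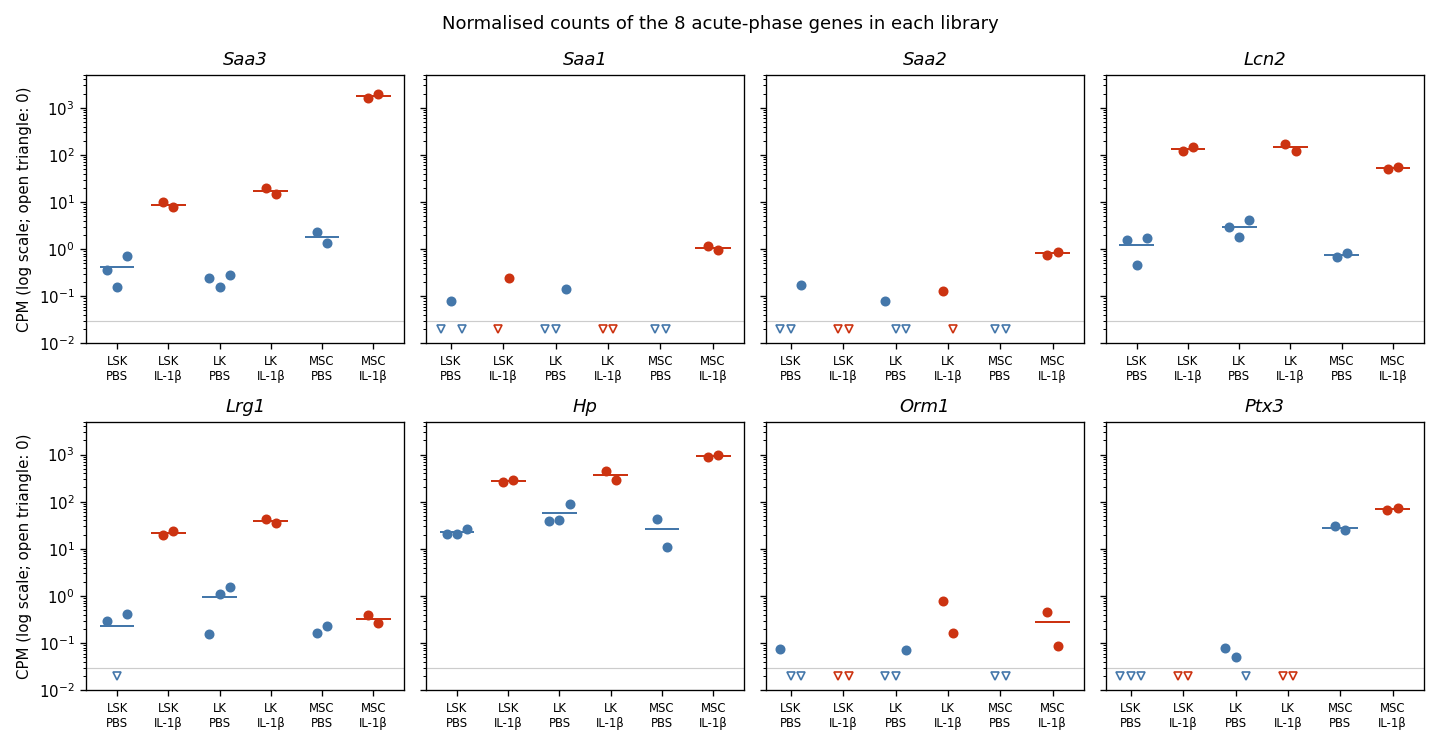
Levels in CPM (y axis, log scale) of the 8 genes in each library of LSK, LK and MSC given PBS (blue) or IL-1β (red). Each point is a library, open triangles under the grey line are libraries at 0, and bars are group means where a group held more than 10 read pairs. Saa3 stands highest in IL-1β-treated MSC at 1603 and 1955 CPM, and Saa1, Saa2 and Orm1 stay near 1 CPM or below everywhere.

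The filter on low counts left 4 of the 8 genes in LSK cells (Saa3, Lcn2, Lrg1 and Hp), the same 4 in LK cells, and 5 in MSC (Saa3, Saa1, Lcn2, Hp and Ptx3). Saa3 and Lrg1 in LSK cells, Saa3 in LK cells, and Saa1 and Lcn2 in MSC passed it only through the IL-1β libraries and had to differ. The calling rule took the cutoffs of the study, a log2 fold change over 0.5 in size with an adjusted p under 0.05. The study applied them to DESeq2 and the main test here was edgeR, so the calls are not those of the study. In LSK cells 3 of the 4 were called higher with IL-1β by edgeR, all but Saa3, where 0.32% of all genes tested were. DESeq2 called Saa3 higher there as well. In LK cells 4 of 4 were called higher, where 6.77% of all genes were, and in MSC 5 of 5, where 7.14% of all genes were. All IL-1β libraries lay above all PBS libraries for each of these genes, which held for 18.2% of all genes in LSK cells, 23.5% in LK cells and 31.3% in MSC. The contrast that chose the genes fixed these counts, and nothing is read from them. The counts moved when 1 library at a time was left out, and nothing is read from that either.

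**Figure D2:**
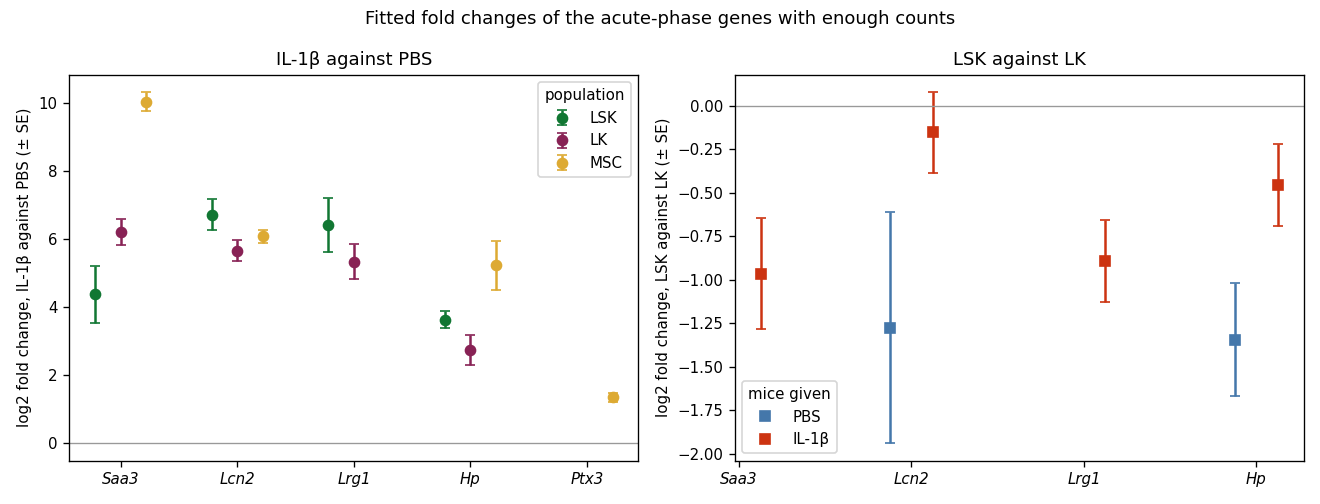
Fitted log2 fold changes with their standard errors (bars) for IL-1β against PBS in each population (left) and for LSK against LK cells within each treatment (right). Saa3 spans log2 fold changes of 4.37 to 10.02 across the populations, whereas Lcn2 spans 5.65 to 6.71.

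The order of the genes differed between the populations. Levels of different genes were compared per kilobase of exon (RPKM). In IL-1β-treated LSK cells Hp was highest at 173 ± 14.1 RPKM (SD, n = 2), followed by Lcn2 at 51.6 ± 6.63, Lrg1 at 15.4 ± 1.93 and Saa3 at 3.37 ± 0.589, and no neighbours overlapped. IL-1β-treated LK cells had the same order, with Hp at 233 ± 70.0, Lcn2 at 56.2 ± 14.5, Lrg1 at 27.8 ± 3.69 and Saa3 at 6.51 ± 1.37 RPKM, again without overlap. In IL-1β-treated MSC Saa3 at 682 ± 95.5 RPKM and Hp at 586 ± 48.0 RPKM overlapped. Far below them came Ptx3 at 26.0 ± 1.50 and Lcn2 at 20.1 ± 1.03 RPKM, which did not overlap, and then Saa1, Saa2, Orm1 and Lrg1, each under 0.5 RPKM on average. Per length, Hp exceeded Saa3 by 33.1 to 62.1 times in the 4 IL-1β libraries of LSK and LK cells. In IL-1β-treated MSC Hp per Saa3 was 0.898 and 0.827.

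With PBS, Hp led in LSK cells at 14.1 ± 2.04 RPKM (SD, n = 3), and Lcn2, Lrg1 and Saa3 all lay under 0.7 RPKM in every library with overlapping values. In LK cells with PBS, Hp was at 35.0 ± 17.1 RPKM, Lcn2 at 1.15 ± 0.438, Lrg1 at 0.666 ± 0.510 and Saa3 at 0.0868 ± 0.0256 RPKM, and Lcn2 and Lrg1 overlapped. In MSC with PBS, Hp at 16.5 ± 13.8 and Ptx3 at 10.4 ± 1.52 RPKM overlapped, above Saa3 at 0.708 ± 0.266, Lcn2 at 0.285 ± 0.0435 and Lrg1 at 0.139 ± 0.0297 RPKM. Across the 6 groups, Saa3 and Hp were highest in IL-1β-treated MSC. Lrg1 was highest in IL-1β-treated LK cells, and Lcn2 was highest in IL-1β-treated LSK and LK cells, which overlapped. The populations were normalized separately, so levels set across MSC and the sorted cells are approximate.

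**Figure D3:**
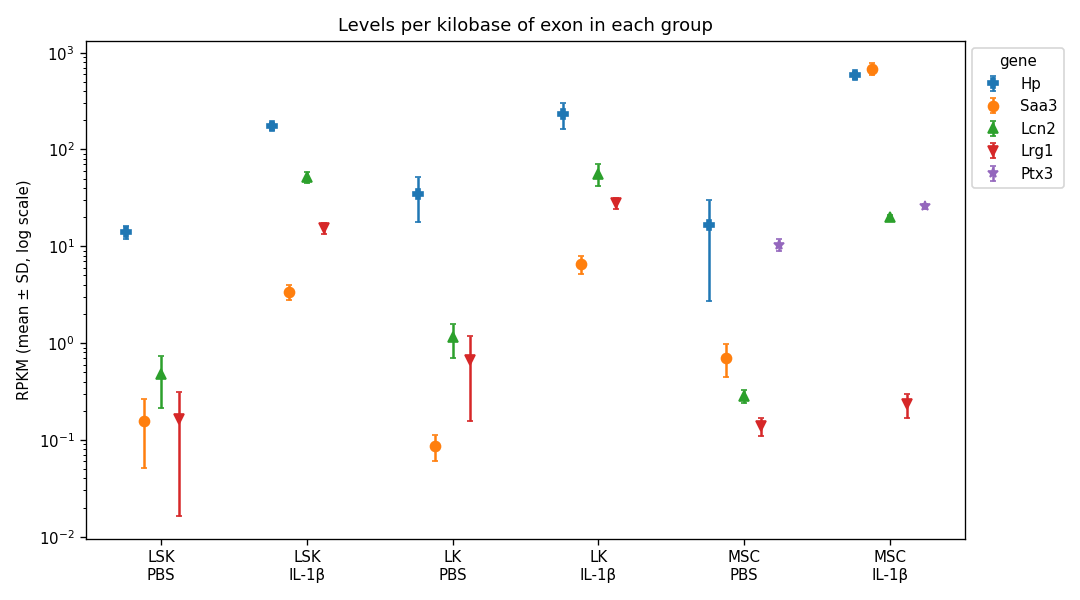
Mean RPKM (y axis, log scale, bars SD) of Hp, Saa3, Lcn2, Lrg1 and Ptx3 in each group, with groups of 3 counts or fewer left out. Hp, Lcn2, Lrg1 and Saa3 follow each other in that order in IL-1β-treated LSK and LK cells, whereas Saa3 at 682 and Hp at 586 RPKM share the top in IL-1β-treated MSC.

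LSK and LK cells were then compared within each treatment, a contrast that did not choose the genes. With PBS, Hp was lower in LSK cells, at 22.6 ± 3.28 CPM (SD, n = 3) against 56.2 ± 27.4 CPM, a log2 difference of -1.34 (SE 0.33, 95% interval -2.09 to -0.60, edgeR quasi-likelihood test with Benjamini-Hochberg adjustment over all genes, adjusted p = 0.0142). Lcn2 had a log2 difference of -1.28 (SE 0.66, 95% interval -2.78 to 0.23, adjusted p = 0.176 in the same edgeR test) and was not called. LSK and LK libraries did not overlap for either gene, which held in 1 or the other direction for 50.4% of all genes. So 1 of the 2 genes with enough counts was called lower in LSK cells, as were 12.8% of all 12737 genes tested. Saa3 and Lrg1 had too few counts with PBS for this test.

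With IL-1β, the 4 genes had log2 differences between LSK and LK cells below 0. None was called in the main fit, which treated the libraries as independent, where 4.14% of all 11743 genes were called lower in LSK cells. Lrg1 was at 21.6 ± 2.71 CPM (SD, n = 2) in LSK and 39.1 ± 5.19 CPM in LK cells, a log2 difference of -0.89 (SE 0.24, 95% interval -1.45 to -0.34, edgeR adjusted p = 0.0604). With the replicate number as a block, which treats same-numbered LSK and LK libraries as pairs, the Lrg1 difference was -0.89 (SE 0.28). It was then called at an edgeR adjusted p of 0.0194, so this call depends on whether the libraries are paired. Saa3 had a log2 difference of -0.97 (SE 0.32, 95% interval -1.71 to -0.22, edgeR adjusted p = 0.103). Hp had one of -0.46 (95% interval -1.01 to 0.10, edgeR adjusted p = 0.252) and Lcn2 one of -0.15 (95% interval -0.70 to 0.39, edgeR adjusted p = 0.701), which turned to 0.12 without LK IL-1β replicate 1. At an unadjusted p under 0.05, 2 of the 4 genes were lower in LSK cells (Saa3 and Lrg1), and DESeq2 called 0. With 1 library left out at a time, the log2 difference ran from -1.17 to -0.76 for Saa3 and from -1.04 to -0.74 for Lrg1. Each of these fits left 1 library in a group, so only their effect sizes are given.

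The IL-1β responses of the 4 genes in LSK and LK cells are set side by side as a description, with no test, since the responses chose the genes. The estimated response of Saa3 was lower in LSK than in LK cells by a log2 difference of -1.88 (SE 0.80). For Lcn2 the estimated difference was 1.04 (SE 0.55), for Lrg1 1.01 (SE 0.96) and for Hp 0.85 (SE 0.45), each higher in LSK cells. The 95% intervals of the differences for Lcn2, Lrg1 and Hp ran from negative to positive values. The values for Saa3 and Lrg1 rest on PBS libraries with few or no read pairs of these genes.

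The genes around these 8 were taken from 3 lists: other acute-phase genes (27), inducers and regulators such as IL-6 and its receptor, the IL-1 receptor and the NF-κB, STAT3 and C/EBP factors (26), and receptors and partners of the secreted proteins (21). In LSK cells 45 of them were tested, and 1 was called higher with IL-1β and 0 lower, where 0.32% and 0.312% of all genes were. Mt1, a metallothionein that binds zinc and copper, rose from 29.7 ± 1.98 to 181 ± 13.7 CPM, a log2 fold change of 2.60 (SE 0.23, edgeR adjusted p = 0.0027). Mt1 was higher in 2 of 2 IL-1β libraries, but was not called without LSK IL-1β replicate 2 (log2 fold change 2.55). The median log2 fold change was 1.21 for the 8 other acute-phase genes tested, -0.32 for 24 inducers and regulators and -0.52 for 13 receptors and partners, beside -0.06 for all genes. Although 0 were called lower by edgeR, 8 were lower at an unadjusted p under 0.05 and DESeq2 called 2 lower (Il1r1 and Il6st). Without LSK PBS replicate 2, 5 were called higher and 3 lower, and without LSK PBS replicate 3, 2 higher and 1 lower.

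In LK cells 12 of 45 list genes rose with IL-1β and 4 fell, where 6.77% and 2.57% of all genes did. The C/EBP factors of granulocyte development and inflammation rose: Cebpe by a log2 fold change of 2.15 (SE 0.30, edgeR adjusted p = 0.00885), Cebpb by 1.51 (SE 0.14, edgeR adjusted p = 0.00128) and Cebpd by 1.42 (SE 0.21, edgeR adjusted p = 0.00601). Complement and endotoxin-recognition genes also rose, with log2 fold changes of 4.42 for C4b, 2.56 for the endotoxin receptor Tlr4, 1.73 for C3 and 1.69 for the endotoxin-binding Lbp. Bcl3, an NF-κB cofactor, rose by 1.47 on the log2 scale. Tnfaip6, a hyaluronan-binding partner of PTX3, had 1 read pair in the 3 PBS libraries and 15 in the 2 IL-1β libraries, a ratio of 48.5 with an exact 95% interval of 7.46 to 2042. The 4 that fell were Il6st (the shared IL-6 receptor chain gp130), the IL-6 family cytokine Osm, the NF-κB subunit Rela and the TGFβ co-receptor Eng. Median log2 fold changes were 1.22 for the 8 other acute-phase genes tested, 0.13 for 23 inducers and regulators and 0.07 for 14 receptors and partners, beside -0.03 for all genes. The count of 12 was 1 without LK IL-1β replicate 1, 5 without LK IL-1β replicate 2 and 6 without LK PBS replicate 2, and the count of 4 was 0 and 1 without the first and the second of these.

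In MSC 27 of 55 list genes rose with IL-1β and 1 fell (the fatty-acid receptor Cd36), where 7.14% and 4.31% of all genes did. Il6 rose from 0.167 and 0.452 CPM to 28.6 and 30.9 CPM, a log2 fold change of 6.34 (SE 0.30, edgeR adjusted p = 0.00091). Socs3, a feedback inhibitor of STAT3 signalling, rose by a log2 fold change of 3.04 (SE 0.12), the NF-κB cofactor Nfkbiz by 1.50 (SE 0.18), Cebpd by 1.30 (SE 0.10), Cebpb by 1.03 (SE 0.10) and Stat3 by 0.75 (SE 0.11), each with an edgeR adjusted p between 0.000584 and 0.0135. Among other acute-phase genes, Steap4 (log2 fold change 4.80), C3 (3.53), the copper oxidase Cp (2.74) and the C1 inhibitor Serping1 (2.66) rose. Median log2 fold changes were 1.56 for the 14 other acute-phase genes tested, 0.75 for 24 inducers and regulators and 0.67 for 17 receptors and partners, beside 0.00 for all genes. Without either IL-1β library of MSC 3 list genes were called higher and 0 lower, and without MSC PBS replicate 2 36 were called higher and 3 lower.

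The receptors and partners of the 8 proteins did not follow 1 pattern. Fpr2, a formyl peptide receptor that binds serum amyloid A, had 0 and 1 read pairs with PBS and 405 and 194 with IL-1β in MSC, a ratio of 267 with an exact 95% interval of 47.8 to 10576, and at most 3 in any LSK or LK library. Tlr2, another serum amyloid A receptor, rose in MSC by a log2 fold change of 2.70 (SE 0.46). Slc22a17, a receptor for LCN2, was not called in any population, with log2 fold changes of -0.92 in LSK cells, -1.14 in LK cells and 0.30 in MSC. Mmp9, which forms a complex with LCN2, had 3 read pairs in the LSK PBS libraries and 53 in the LSK IL-1β libraries, of which 1 library held 46. Its ratio was 56.5 with an exact 95% interval of 18.3 to 283, and it was not called by edgeR but was called higher by DESeq2. Eng, the receptor through which LRG1 acts on TGFβ signalling, fell by 0.60 on the log2 scale in LK cells (SE 0.10, edgeR adjusted p = 0.00906).

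Genes of the IL-1 and IL-6 pathways in the sorted cells were described by their role. Il1r1, the signalling IL-1 receptor, was at 57.6 CPM with PBS and 24.9 CPM with IL-1β on average in LSK cells, and at 5.53 and 8.77 CPM in LK cells, and was called in neither by edgeR (adjusted p = 0.131 and 0.228). In LK cells the IL-1 receptor chain Il1rap rose by a log2 fold change of 0.96 (SE 0.20, edgeR adjusted p = 0.0205) and the adaptor Myd88 by 0.50 (SE 0.11, edgeR adjusted p = 0.027). Il6 had 4 to 21 read pairs in IL-1β libraries and 2 to 7 in PBS libraries of LSK and LK cells. Its log2 fold change in LSK cells was 2.80 (SE 1.17, edgeR adjusted p = 0.248), and it had too few counts to be fitted in LK cells. Nfkbiz was not called in LSK or LK cells, with log2 fold changes of -1.45 and 0.08, the second of which turned to -0.07 with the replicate number as a block. Socs3 had log2 fold changes of 1.49 in LSK and 1.13 in LK cells, and Stat3 of -0.23 and 0.82. Neither was called by edgeR, while DESeq2 called Socs3 higher in LSK and Stat3 higher in LK cells. Of the liver-type relatives, Saa4, Orm2 and Orm3 had at most 4 read pairs in any library.

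**Figure D4:**
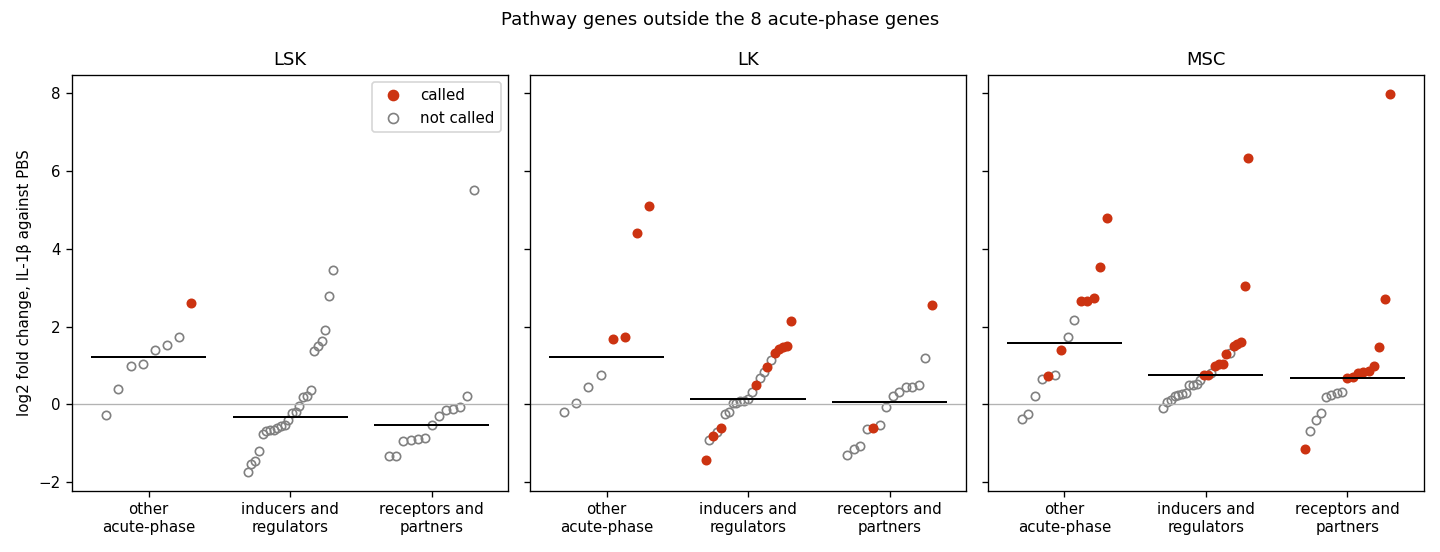
Log2 fold changes of IL-1β against PBS for the tested genes of the 3 lists in LSK, LK and MSC, with called genes filled, others open and the median of each list as a black line. Of the list genes 1 was called in LSK cells, 16 in LK cells and 28 in MSC.

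Markers of granulocytes, most of them by level the primary-granule genes of progenitors, moved with the 4 genes in the sorted cells, from which lineage-marked cells had been depleted. The study's lineage panel for progenitors includes the granulocyte antigen Gr-1. The 15 neutrophil markers summed to 2209 to 3191 CPM with PBS and 9950 to 11627 CPM with IL-1β in LSK cells, and to 4422 to 9576 and 18211 to 21375 CPM in LK cells. In LSK cells 3 of 12 tested markers were called higher with IL-1β and in LK cells 8 of 13, and none was called lower. Of all genes, 0.32% and 6.77% were called higher. Median log2 fold changes were 2.76 and 3.38 for the markers, beside -0.06 and -0.03 for all genes. The primary-granule genes Mpo, Elane, Prtn3 and Ctsg made up 97.5 to 99.9% of the sum in every LSK and LK library. The other 11 markers summed to 6.27 to 15.6 CPM with PBS and 32.7 to 99.9 CPM with IL-1β in LSK cells, and to 6.74 to 21.2 and 234 to 540 CPM in LK cells. Ly6g, which defines mature neutrophils, was at 0 in every library. In LK cells the late markers Mmp8 and Cxcr2 had log2 fold changes of -0.10 and 0.23 and were not called (edgeR adjusted p = 0.964 and 0.765). Others of the list went the other way in LK cells: Chil3 (log2 fold change 7.45), S100a9 (5.97), S100a8 (5.61) and Cd177 were called higher. Ngp (4.11), Ltf (3.75) and Camp (3.38) were also above 0 there but were not called. Retnlg had 1 read pair in the LK PBS libraries and 9 in the LK IL-1β libraries. In LSK cells 3 of 10 stem and progenitor markers were called lower with IL-1β, where 0.312% of all genes were, with a median log2 fold change of -1.32 over the 10. Since sorted cells were measured in bulk, more cells of a type and more RNA per cell cannot be told apart, and the part of the granulocyte transcripts in the levels of Lcn2, Lrg1, Hp and Saa3 was not tested. In MSC the neutrophil list summed to 4.17 and 3.54 CPM with PBS and 18.8 and 18.5 CPM with IL-1β. Of its 3 tested markers 2 were called higher, Camp (log2 fold change 5.45) and Mmp8 (2.99). In the macrophage list 8 of 15 were called higher with IL-1β and 0 lower, where 7.14% and 4.31% of all genes were. The median log2 fold change of that list was 0.91, and 14 of 15 were above 0, all but Cd68 (-0.47, not called). The macrophage gene Lyz2 was at 5968 ± 1648 CPM with PBS and 20338 ± 658 CPM with IL-1β in MSC. Cd14 and C1qa of the macrophage list and Eng of the mesenchymal list also stand in the lists above. The part of macrophage transcripts in the MSC levels of Saa3, Lcn2 and Hp was not tested.

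**Figure D5:**
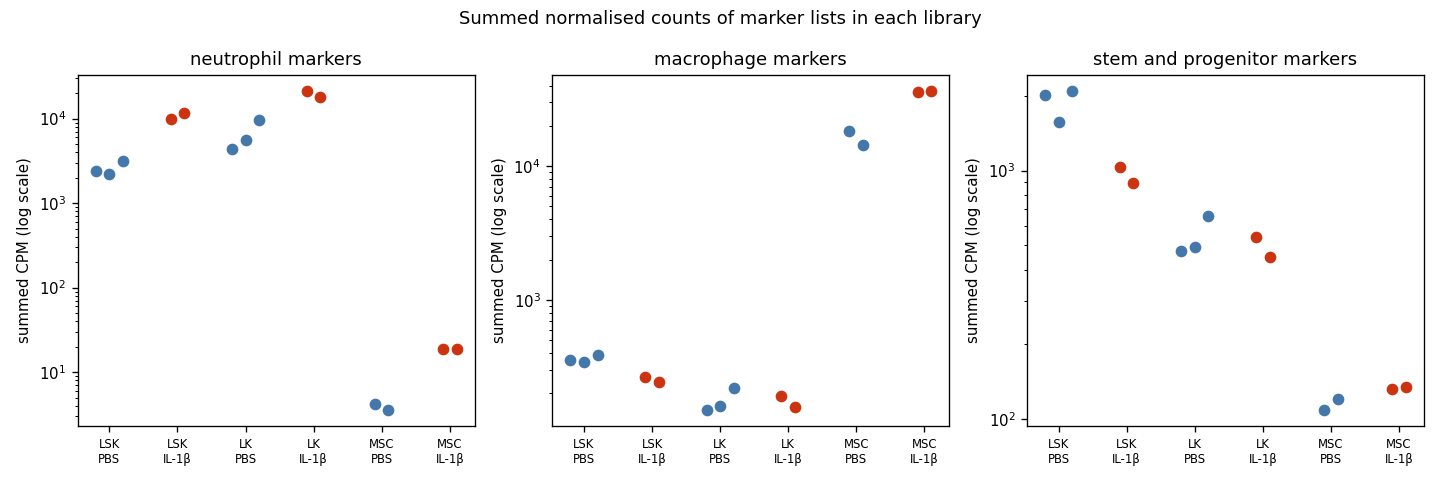
Summed CPM (y axis, log scale) of 15 neutrophil, 15 macrophage and 10 stem and progenitor markers in each library, given PBS (blue) or IL-1β (red). Neutrophil markers stand at 9950 to 11627 CPM in IL-1β-treated LSK cells and 18211 to 21375 CPM in IL-1β-treated LK cells, above all PBS libraries of their population, and macrophage markers stand highest in MSC.

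Over the 10 LSK and LK libraries, the genes whose log2 CPM followed Saa3, Lcn2 and Lrg1 most closely were listed as a description. The points share the same treatment split and depth difference, and r was not adjusted for either. For Saa3 they were Prss16 (Pearson r 0.98, n = 10), Dio2, Myd88, Flot2 and Slc16a3, for Lcn2 Prss16 (0.99), Ssr1, Bri3bp, Atp6v1c1 and Atp6v0d1, and for Lrg1 Prss16 (0.98), Dio2, Hp, Lcn2 and Chd7, out of 11028 or 11027 genes compared. Among the 4 genes themselves, r ran from 0.92 between Saa3 and Hp to 0.98 between Lrg1 and Hp.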

How the data were processed

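RNA was sequenced from 10 libraries of sorted LSK and LK cells and 4 MSC libraries. The values deposited are raw counts of read pairs per gene. Per the labels and file headers, the authors trimmed reads with fastp 0.20.0, aligned them with HISAT2 2.0.1 to GRCm38, used SAMtools 1.10 and counted read pairs with featureCounts 2.0.2 in reverse-stranded mode. Pairs that fit more than 1 gene were not counted, so near-identical genes lose reads. A further IL-1β-treated MSC library was not analysed here.

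The 8 genes, the lists and the tests were chosen with earlier results of these data known. Symbols came from GENCODE M21 for 55141 of 55487 identifiers, and promoters from RefSeq. The test was edgeR's quasi-likelihood test (version 4.0.16, in R 4.3.3) after filterByExpr and TMM, with robust glmQLFit, run on the libraries of each comparison, with Benjamini-Hochberg adjustment over all genes tested. The SE is the log2 fold change divided by the square root of F. The scripts were tested on simulated data. Genes named beside the 8 were up to 8 called list genes for each contrast by size, list genes fixed for their role, and the 5 most alike genes. Il1rap, Myd88, Il6st, Osm, Rela, Eng and Cd36 were named after their values were seen. So were the markers Ly6g, Lyz2, Cd68, Apob, Mpo, Elane, Prtn3, Ctsg, Mmp8, Cxcr2, Chil3, S100a9, S100a8, Cd177, Ngp, Ltf, Camp and Retnlg.

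Alternatives were DESeq2 1.42.0, other size factors, other filters on low counts, a joint fit, a replicate block and each library left out. LSK and LK libraries of the same number deviated together, with correlations of their deviations from the group means of 0.211, 0.128 and 0.472 with PBS and 0.100 with IL-1β, where both pairs give 1 value by construction. Differently numbered PBS libraries also reached 0.162 (LSK 2 with LK 1, above LSK 2 with LK 2) and 0.124 (LSK 1 with LK 2). The number was taken only as a possible pairing, and the labels do not say that it pairs the libraries. These correlations do not settle it. The main tests between LSK and LK cells, and the test of the Mt1 interaction, treated the libraries as independent. Library totals, from 4393233 to 30871055, set the precision of low genes. Figures were drawn with matplotlib 3.10.9.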

Additional observations from a re-analysis of the deposited data

Results flagged for a closer look

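Of the genes in the lists around the 8, edgeR called only Mt1 in a test of the difference in IL-1β response between LSK and LK cells. Of all 13839 genes tested, 1 was called with a larger and 3 with a smaller response in LSK cells. The log2 fold change of Mt1 was 2.60 in LSK and 0.45 in LK cells, and the interaction was 2.12 (SE 0.23, edgeR adjusted p = 0.0123). DESeq2 called Mt1 and also C4b, Il1r1 and Tlr4. By edgeR the interactions of these 3 were -4.08, -1.91 and -2.38 (edgeR adjusted p = 0.140, 0.151 and 0.159). Mt1 was at 29.7 ± 1.98 CPM in LSK cells with PBS (SD, n = 3), at 181 ± 13.7 CPM with IL-1β (n = 2), and at 204 ± 22.2 and 278 ± 1.50 CPM in LK cells. The adjusted p ran from 0.00891 to 0.129 when 1 of the 10 libraries at a time was left out, and the call was lost without LK IL-1β replicate 1 or 2, LK PBS replicate 2 or LSK IL-1β replicate 2, at log2 differences of 2.04 to 2.16.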

How the results depend on the processing

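Normalization by DESeq2's size factors or upper-quartile factors changed no call of the genes named. Of the list genes in LSK cells, 8 were called higher and 2 lower by DESeq2, and 8 and 3 with no filter on low counts, against 1 and 0. With no filter, and with the replicate number as a block, 1 gene (Lrg1) was called lower in LSK than in LK cells under IL-1β, against 0. With 1 library left out at a time, the genes called among the 8 ran from 2 to 4 in LSK, 2 to 4 in LK and 2 to 6 in MSC, and 0 to 2 between LSK and LK cells under IL-1β. The counts for IL-1β against PBS follow from the choice of the 8, and nothing is read from them. The list genes called higher ran from 0 to 5 in LSK, 1 to 16 in LK and 3 to 36 in MSC, and those called lower from 0 to 3, 0 to 5 and 0 to 3. Where that left 1 library in a group, it was assumed to vary like the others. The direction turned for genes that were not called: Lcn2 between LSK and LK cells under IL-1β (-0.40 to 0.12), Nfkbiz in LK (-0.21 to 0.64), Stat3 in LSK (-0.53 to 0.029), Slc22a17 in MSC (-0.12 to 0.72) and Mmp9 in MSC (-0.31 to 1.77), and for Nfkbiz in LK also under the replicate block (-0.069). PBS and IL-1β mice share only a replicate number, and the contrast between them chose the 8 genes. Nothing is therefore read from the calls of these genes with that block within a population. The cause of these changes was not tested.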
